A study of Mus musculus with 4 samples.

Results

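The clustered protocadherins are neighbouring families of cell adhesion genes on mouse chromosome 18. Members were all protein-coding genes there whose symbols begin with Pcdha, Pcdhb or Pcdhg, in NCBI's gene table for GRCm38.p6, which has the coordinates of mm10. There were 57 of them among 21631 protein-coding genes: 14 Pcdha, 22 Pcdhb and 21 Pcdhg. The stretch examined ran from 200 kb before the start of Pcdha1 to 200 kb after the end of the Pcdhg genes (chr18:36730285-38041873). It held 56 of the 113404 called regions of the series.

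Open chromatin had been mapped by bulk ATAC-seq, where the transposase Tn5 cuts and tags accessible DNA, in organoids of mouse colonic epithelium. Organoids are cultures of epithelial cells that organise themselves in a gel, here grown with Wnt, EGF, Noggin and R-spondin. The 4 libraries, all labelled wild type (WT) and of a single batch, were organoids from colitis mice with 0.1% DMSO, colitis with 10 µM T-5224 (an AP-1 inhibitor), healthy control with 0.1% DMSO and control with 10 µM T-5224, each for 24 h. All were frozen alive and thawed before nuclei were taken. Each group held 1 library, and both libraries of a donor history share a code in their names, so they may come from the same animal or line. The deposited values were 1 list of peaks with no value per library, so neither T-5224 and DMSO nor colitis and control were compared, and no result has a replicate or a test. The sources used here do not say which libraries entered the list.

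Each Pcdha and Pcdhg gene has its own promoter and its own large exon, which is spliced to constant exons that all genes of the family share. Pcdhb genes are made of a single coding exon. In neurons, each cell uses a small, largely random choice of these promoters, which gives the cell a surface identity; the choice depends on promoter methylation and on loops between promoters and distant enhancers held by CTCF and cohesin. The last genes of the Pcdha and Pcdhg families, called c-type, are not chosen at random in the same way. No promoter sequence of these genes is shown.

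The start of a gene was taken as the end that lies at its own exon. In the table, the 14 Pcdha genes had starts spread over 213393 bp and ends within 1240 bp of each other, and the 21 Pcdhg genes had starts spread over 157771 bp and ends within 10 bp. The shared end is thus the side of the constant exons. For Pcdhb the lower coordinate was used, and the choice does not bear on the counts, because no region was called near either end of any Pcdhb gene.

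A called region holds 1 or more summits, its local high points of signal. Some summit lay within 500 bp of the start in 11 of 57 clustered protocadherin genes (19.3%). Over 17274 protein-coding genes whose strand was known the share was 57.6%. All but 1 of the 11 were Pcdhg genes: 10 of 21 Pcdhg starts (47.6%) were called, 1 of 14 Pcdha starts (7.14%) and 0 of 22 Pcdhb starts. The called starts were mostly weak. Their median fold enrichment over background was 4.52, against 27.7 over all called starts of protein-coding genes (25th to 75th percentile 13.1 to 42.2). Of the 11 starts, 7 were under 5-fold, a range that held 10.9% of called protein-coding starts, and 10 were below the 25th percentile of those starts. Neighbouring genes share position and sequence and are not replicates, so these shares are descriptions of 1 list.

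**Figure D1:**
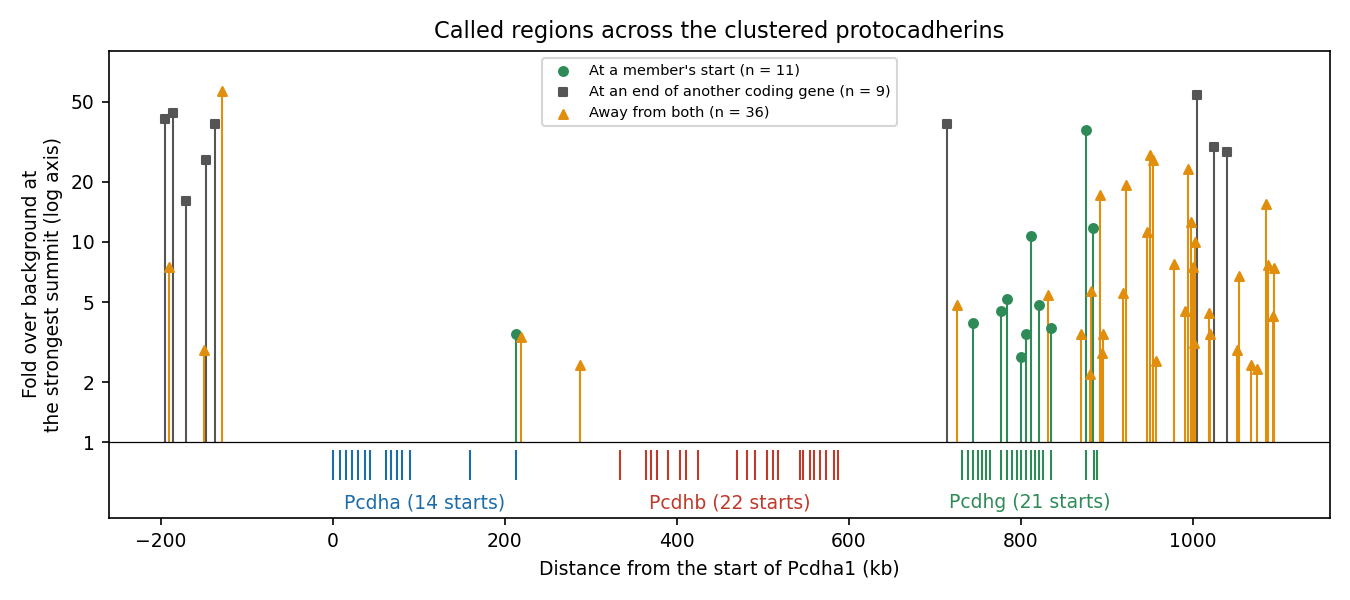
Fold over background (log axis) at the strongest summit of each of the 56 called regions against distance from the start of Pcdha1 in kb, with ticks for the 57 gene starts under the axis. The Pcdha and Pcdhb starts lie under almost empty stretches, whereas 17 regions lie in the Pcdhg cluster and 26 in the flank after it.

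Absence from the list has a limit. The weakest summit called anywhere in the series had a pileup of 17 (2.09-fold), and the narrowest region was 200 bp wide. A start with less signal than that, or with signal over a narrower stretch, would not be listed. In a bulk assay a promoter open in few cells and a promoter weakly open in many cannot be told apart.

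Of the Pcdha genes, Pcdhac2 alone had a summit at its start. Pcdhac2 (NCBI Gene 353237, chr18:37143678-37187663) is known for the spacing of serotonergic axons. Its region, 37143035 to 37144245, had 3 summits of almost equal height, 3.48-fold at 476 bp before the start (95% Poisson interval 2.37 to 4.94), 3.01-fold at 49 bp after it and 3.48-fold at 354 bp after it. This region is wide, 1211 bp, but its highest pileup was 29 where the expected background was 7.63.

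The other 13 Pcdha starts, Pcdha1 to Pcdha12 and the c-type gene Pcdhac1, all lay in an uncalled stretch of 339.7 kb (chr18:36803310-37143034). The stretch began at the edge of the region over Vaultrc5, a small noncoding gene, and ended at the edge of the Pcdhac2 region. Of 113384 uncalled stretches between neighbouring regions in the series, 934 (0.824%) were at least as long, and the median was 4280 bp. This share counts each stretch once whatever its length. The share of the genome that lies in stretches this long is larger, so the count does not measure how rarely a gene falls in one. One further region lay inside the Pcdha cluster, 5687 bp after the start of Pcdhac2 (37149223 to 37149625, 3.36-fold, interval 2.27 to 4.81). It lies inside every Pcdha gene of the table, in the part between the last alternative promoter and the shared end.

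All 22 Pcdhb genes, Pcdhb1 to Pcdhb22, lay in a second uncalled stretch, of 425.3 kb (chr18:37218495-37643749). The nearest summit to a Pcdhb start was 46617 bp away, at Pcdhb1, and the farthest nearest summit was 208624 bp away. At least this length was reached by 727 stretches (0.641%) in the series and by 24 of 3675 on chromosome 18. These shares too count stretches and not the sequence they cover. By the number of genes within, 46 stretches held 13 or more protein-coding starts of known position, and 17 held 22 or more. Of the 46, 26 had as their most common symbols those of smell, pheromone or taste receptors (symbols Olfr, Vmn1r, Vmn2r and Tas2r), 2 were the Pcdha and Pcdhb stretches, and 18 were led by other symbols. Whether reads were shared among similar copies of a gene, Pcdhb genes included, was not tested.

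In the Pcdhg cluster, called and uncalled starts were interspersed. Pcdhg genes of A-type and B-type follow each other, a few kb apart, with a median of 5369 bp between neighbouring starts over the cluster. Of the A-type genes 5 of 12 had a summit (41.7%), and of the B-type genes 3 of 6 (50%), beside 57.6% of all protein-coding starts of known strand. Among these 18 genes, 3 of the 9 nearest the Pcdhb side were called and 5 of the 9 nearest the c-type genes. These counts are small, and differences by type or position were not tested.

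The strongest A- or B-type start was that of Pcdhgb6 (NCBI Gene 93703, chr18:37742094-37841873), with 10.7-fold (interval 8.61 to 13.1), a pileup of 91, in a region of 640 bp. Its interval did not overlap that of any other A- or B-type gene. Pcdhga7 followed with 5.22-fold (3.82 to 6.96), and Pcdhgb7 had 4.87-fold (3.53 to 6.56). Pcdhga6 had 4.52-fold (3.23 to 6.16) and Pcdhga3 had 3.94-fold (2.75 to 5.49). Lower values were those of Pcdhga12, 3.71-fold (2.56 to 5.22), Pcdhga9, 3.48-fold (2.37 to 4.94), and Pcdhgb5, 2.67-fold (1.71 to 3.98). Apart from Pcdhgb6, the intervals of all these genes overlapped, and differences between them were not tested. The product of each is a cell surface adhesion protein that binds like copies of itself on a neighbouring cell.

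**Figure D2:**
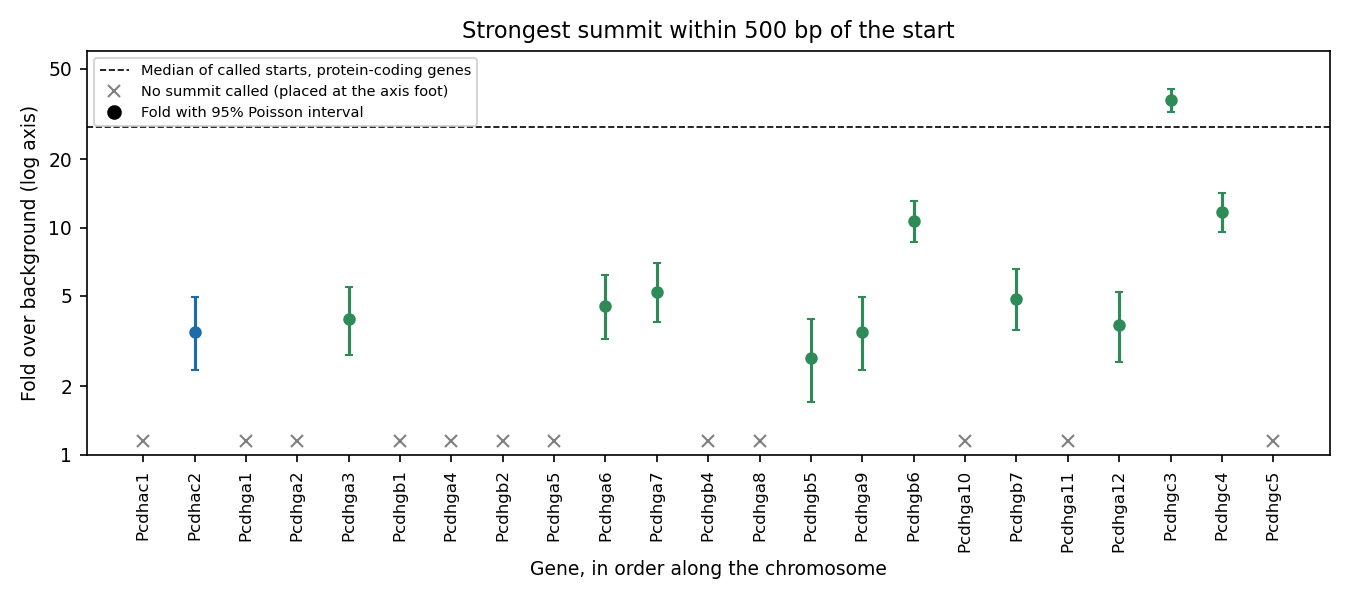
Fold over background (log axis) of the strongest summit within 500 bp of the start, for the c-type Pcdha genes and all Pcdhg genes in chromosome order, with 95% Poisson intervals; crosses are genes with no summit and the dashed line is the median of called starts of protein-coding genes. Pcdhgc3 at 36.3-fold lies above the line, and Pcdhgb6 and Pcdhgc4 lie above 10-fold.

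The summits of these 8 genes lay close to the annotated starts, all on the side of the exon. In 7 of the 8 the summit was between 6 bp (Pcdhga7) and 50 bp (Pcdhgb7) past the start, and in Pcdhga12 it was 378 bp past it. The Pcdhga12 region (37765777 to 37766105) did not cover the start itself. The regions were narrow, from 200 bp at Pcdhgb5 to 640 bp at Pcdhgb6, and 7 of the 8 had a single summit.

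No summit lay within 500 bp of the starts of Pcdhga1, Pcdhga2, Pcdhgb1, Pcdhga4, Pcdhgb2, Pcdhga5, Pcdhgb4, Pcdhga8, Pcdhga10, Pcdhga11 and Pcdhgc5. The nearest summit to these 11 starts was between 2613 and 15496 bp away, so that none of them gained a summit with a window of 2000 bp. The pseudogene Pcdhgb8, which lies between Pcdhga11 and Pcdhga12 and is not a member, did have a summit, 178 bp before its start (5.45-fold, interval 4.02 to 7.23). This value is above those of 7 of the 8 called A- and B-type genes, although the intervals of several of them overlap it.

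The c-type Pcdhg genes held the strongest promoter of the whole cluster. Pcdhgc3 (NCBI Gene 93706, chr18:37806410-37841873) has been studied as a candidate tumour suppressor in colorectal cancer. Its start had 36.3-fold (32.4 to 40.5), a pileup of 312, at 81 bp before the start. No interval of another clustered protocadherin reached it, and 34.1% of called protein-coding starts were as strong or stronger. Its region was 3409 bp wide (37805895 to 37809303) and had 5 summits; a further summit of 8.81-fold lay 335 bp past the start and another of 14.6-fold 2479 bp past it.

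Pcdhgc4 (NCBI Gene 93707, chr18:37815079-37841873), known to be needed for the survival of neurons, had a pair of summits of equal height, 11.7-fold (9.55 to 14.2), at 293 bp before and 264 bp after the start. They belonged to a region of 1508 bp (37814397 to 37815904). The interval overlapped that of Pcdhgb6 and lay above those of the other called A- and B-type genes. Pcdhgc5 (NCBI Gene 93708, chr18:37819546-37841873) had no summit at its start. A region with 17.2-fold (14.5 to 20.1) lay 3108 bp past it (37822036 to 37823163), inside all the Pcdhg genes. In all, 3 of 5 c-type genes were called (60%), against 8 of the other 52 clustered protocadherins (15.4%). Of the 12 other Pcdha and 22 Pcdhb genes among the 52, 0 were called, so the contrast mixes type with cluster. Within Pcdhg, 2 of 3 c-type starts were called, against 5 of 12 A-type and 3 of 6 B-type starts. Within Pcdha it was 1 of 2 against 0 of 12, and the called start, that of Pcdhac2, was under 5-fold. Over all protein-coding genes whose strand was known the share was 57.6%, and that of the 52 was below it. The 5 c-type genes are too few to say how their share compares, and differences by type were not tested.

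Beside the 11 regions at clustered protocadherin starts, the stretch held 9 regions at an outer end of another protein-coding gene and 36 away from both, taken as over 1000 bp from such an end or start. The Pcdhg cluster had 9.39 regions per 100 kb and the flank after it 13.0, against 4.43 over the whole list, measured between the outermost regions of each chromosome. The Pcdha cluster had 0.770 per 100 kb and the Pcdhb cluster 0. By covered length, 6.34% of the Pcdhg cluster was called, 0.622% of the Pcdha cluster and 3.23% of the whole list. Regions away from gene ends in the stretch had a median of 5.51-fold, against 4.64-fold over all such regions in the list (25th to 75th percentile 3.13 to 8.93).

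**Figure D3:**
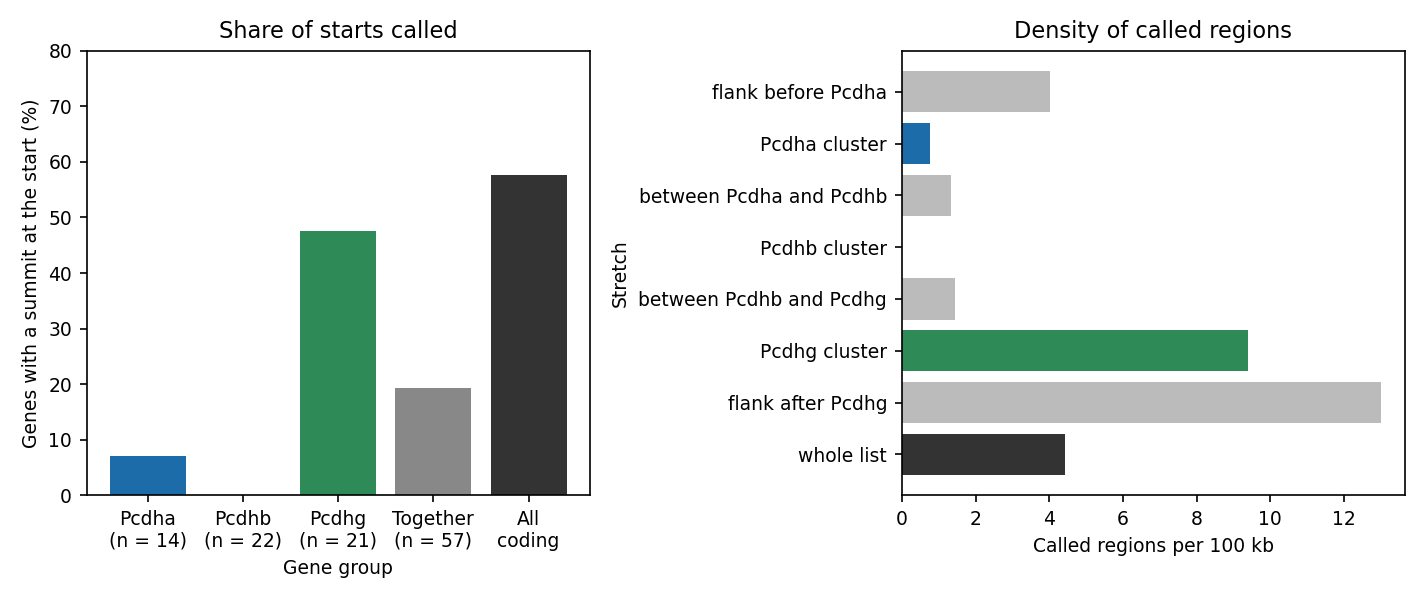
Left, percentage of genes with a summit within 500 bp of the start for each family, for the families together (19.3%) and for 17274 protein-coding genes (57.6%). Right, called regions per 100 kb in each stretch, where the Pcdhb cluster is at 0 and the flank after Pcdhg at 13.0.

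Between the Pcdha constant end and Pcdhb1, a single region was called, at 37218271 to 37218494. It reached 2.43-fold (1.53 to 3.70), near the lowest value in the list, and its summit lay 29484 bp past the last Pcdha end. Distant enhancers of the Pcdha genes are known near and beyond their constant exons, and a control region of the Pcdhb and Pcdhg genes is known beyond Pcdhg. Their coordinates were not used here, so no region was matched to them by name.

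Between Pcdhb and Pcdhg the promoter of Taf7, a subunit of the general transcription factor TFIID, had 38.7-fold (34.7 to 43.1, region 37643750 to 37644906). It lies 17530 bp before the start of Pcdhga1, and its region marks the end of the uncalled Pcdhb stretch. A weaker region at 37655403 to 37656026, 6076 bp before Pcdhga1, had 4.87-fold. No summit lay at the start of Pcdhga1 itself.

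Inside the Pcdhg cluster, 7 regions lay away from all protein-coding starts. They were the pseudogene region given above, the 17.2-fold region past Pcdhgc5 and 5 others of 2.20-fold to 5.68-fold. The 5.68-fold region (37811650 to 37812353) lies between Pcdhgc3 and Pcdhgc4, and the 2.20-fold region (37811365 to 37811602) is next to it. A region of 3.48-fold lay 5445 bp before Pcdhgc3. The last pair, of 2.78-fold and 3.48-fold, lay 5558 and 6039 bp past the start of Pcdhgc5.

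After the shared Pcdhg end, 14 of the 26 regions of the flank lay inside Diaph1, which encodes a formin that nucleates actin filaments. The lower coordinate of Diaph1 lies 1728 bp past the last Pcdhg end, and the gene covers 92.0 kb. Its strand was not known here, so this end need not be its start. Of its 14 regions, 13 lay away from its ends, with 2.55-fold to 27.2-fold. The strongest of the 13 was at 37879785 to 37880721 (27.2-fold, 23.9 to 31.0), 38472 bp past the Pcdhg end. A neighbour at 37883393 to 37883986 had 25.6-fold (22.4 to 29.2), and a region at 37923679 to 37924915 had 23.2-fold (20.1 to 26.6). Nearer to Pcdhg, 10424 bp past its end, a region at 37852033 to 37852633 had 19.2-fold (16.4 to 22.4). Further regions inside Diaph1 had 12.6-fold (37927729 to 37929349), 11.2-fold (37877152 to 37877801) and 9.97-fold (37932359 to 37934038). These regions may belong to Diaph1 as well as to the protocadherins, and the list has nothing that ties a region to a gene.

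Of the 10 strongest regions away from protein-coding ends in the stretch, 8 lay in the flank after Pcdhg, 7 of them inside Diaph1. The eighth was at 38013665 to 38016173, with 15.5-fold. The other two were the 17.2-fold region past Pcdhgc5 and the strongest region of the stretch, 56.6-fold (51.7 to 61.8) at 36800724 to 36803309. That region lies over Vaultrc5, the gene of a vault RNA, a class that RNA polymerase III transcribes, and 128457 bp before Pcdha1.

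The ordinary promoters on both sides were stronger than most protocadherin starts. The 9 regions at ends of other protein-coding genes had a median of 38.7-fold. Diaph1 had 54.0-fold (49.2 to 59.2) at its far end. On the Pcdha side, the end shared by Ndufa2, of respiratory complex I, and Ik, a splicing factor, had 44.2-fold, Tmco6 had 41.2-fold and Zmat2, another splicing factor, had 39.0-fold. On the Pcdhg side, the end shared by Hdac3, a histone deacetylase, and Rell2 had 29.7-fold, and Fchsd1 had 28.2-fold. Of all regions of the stretch, Pcdhgc3 was the 7th strongest and the next clustered protocadherin, Pcdhgc4, the 19th.

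Non-clustered protocadherins are separate genes with a promoter each, and were read in the same way. Of 12 non-clustered protocadherins 6 had a summit, and these 6 had a median of 10.4-fold. Pcdh17 had 38.8-fold (34.8 to 43.2) and Pcdh10 had 16.0-fold (13.5 to 18.9). Pcdh7 and Pcdh9 were among the 6 without. Within the gene, Pcdh1 had 39.7-fold, against 10.2-fold at an outer end. Of the uncalled genes, Pcdh15 had 11.1-fold and Pcdh9 7.42-fold within the gene, and Pcdh7, Pcdh11x, Pcdh12 and Pcdh20 had no summit there. For 3 of the 12, strand was not known and either outer end was accepted; by that measure the share was 59.7% over all 21631 protein-coding genes and the clustered protocadherins again had 11 of 57. Of 9 classical, desmosomal and intestinal cadherins 8 had a summit, 6 of the 9 measured at either end. Dsg2, a desmosomal cadherin, had 56.7-fold and Cdh1, E-cadherin of the adherens junction, had 49.0-fold, whereas Cdh2, N-cadherin, had none.

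The Ugt1a genes of chromosome 1, which encode glucuronidating enzymes, have the same build of alternative starts spliced to shared exons. Among 9 Ugt1a genes 4 had a summit, against 57.6% of all protein-coding starts: Ugt1a1 with 34.2-fold, Ugt1a7c with 13.3-fold and Ugt1a6a with 3.94-fold at the start, and Ugt1a6b, whose strand was not known, with 4.52-fold at an outer end. Ugt1a7c, Ugt1a6b and Ugt1a6a are neighbours in this order, the 5 uncalled being Ugt1a2, Ugt1a5, Ugt1a8, Ugt1a9 and Ugt1a10.

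**Figure D4:**
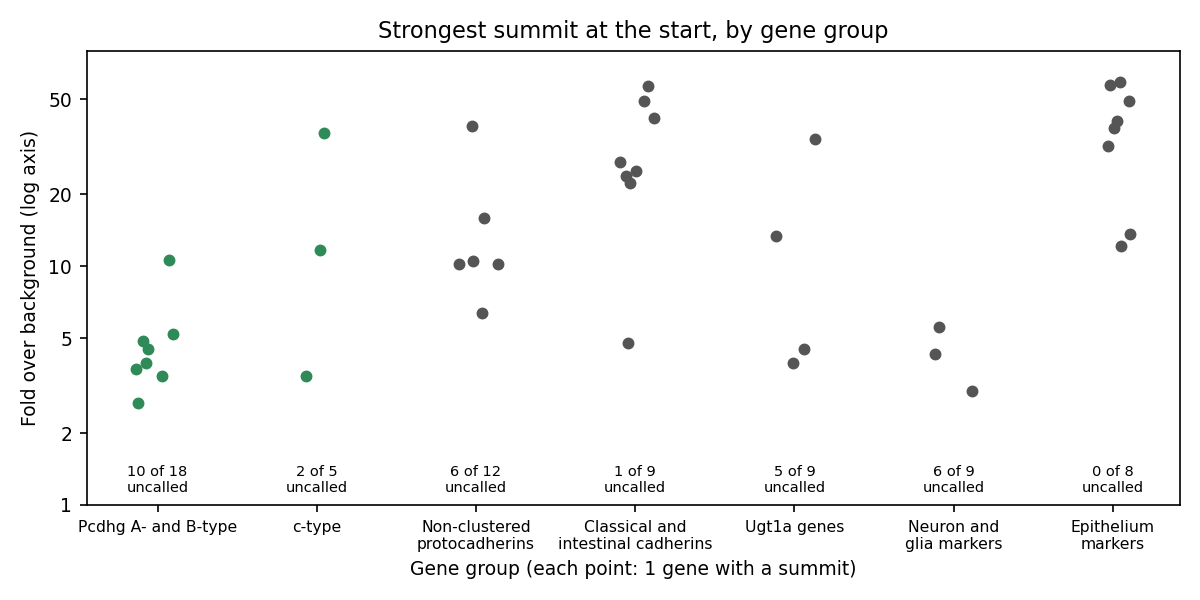
Fold over background (log axis) of the strongest summit at the start (at either outer end for listed genes of unknown strand), with 1 point for each gene that has a summit and the number of uncalled genes under each group. The A- and B-type Pcdhg genes lie between 2.67-fold and 10.7-fold, near the neuron and glia markers and below the epithelium markers, which lie between 12.2-fold and 59.1-fold.

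Genes of proteins that act on the cluster, and of listed protocadherin partners, were read in the same way. The share over all protein-coding genes was 57.6% at the start and 59.7% at either outer end. Of 11 genes of CTCF, cohesin and its loaders and releasers 7 had a summit, with 24.5-fold to 52.2-fold. Smc3 of the cohesin ring had 52.2-fold and Mau2 of the loader 48.0-fold. The gene of CTCF itself had 28.4-fold. Stag1 and Wapl had none at the outer start, and Rad21 and Nipbl none at either end; all 4 had 29.7-fold or more within the gene. Of 8 genes of silencing factors 6 had a summit. Trim28 had 45.9-fold and Smchd1, which is known to silence clustered protocadherins, had 41.9-fold. Dnmt3b, the DNA methyltransferase of protocadherin promoters, had 7.42-fold. Dnmt1 and Dnmt3a had none at the outer start and 23.9-fold and 14.7-fold within the gene. All 8 genes of the list made for protocadherin partners had a summit, 4 of them measured at either end. The kinases Wnk1 (58.5-fold) and Ptk2b (40.5-fold) led. Celsr3 (7.30-fold) and Fat1 (4.99-fold) were lowest, but had 60.5-fold and 45.2-fold within the gene. Whether each product binds a clustered protocadherin was not examined.

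Markers of the labelled tissue were open. For each marker count below, the share over all protein-coding genes was 57.6% at the start and 59.7% at either outer end. All 8 epithelial markers had a summit, led by Krt8 (59.1-fold) and Cldn3 (57.6-fold). Of 9 neuron and glia markers 3 had one: Elavl3 (5.56-fold), Snap25 (4.29-fold) and Elavl4 (3.01-fold). The other 6 had none at the start, or at either end where strand was not known, among them Syt1 and Rbfox3. Within the gene, Syt1 had 32.7-fold, S100b 8.58-fold and Rbfox3 6.03-fold. Of 8 fibroblast and muscle markers 3 had a summit, led by Pdgfrb (6.49-fold) and Acta2 (3.83-fold), with none at Col1a1, Col1a2, Col3a1, Pdgfra and Myh11. Of 5 leukocyte markers 2 had a summit, Cd68 (21.8-fold) and Csf1r (3.48-fold), with none at Ptprc, Cd3e and Itgam. Apart from Cd68, the called markers of other cell types had 2.32-fold (Des) to 6.49-fold (Pdgfrb). That is about the size of most A- and B-type Pcdhg calls. Listed genes of other kinds also had calls of this size at the start, such as Cdhr1 (4.75-fold) and Fat1 (4.99-fold). Fat1, however, had 45.2-fold within the gene. What part other cell types had in the Pcdhg calls was not tested.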

How the data were processed

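The authors deposited 1 narrowPeak list for the 4 libraries. The submitters' processing notes name Bowtie2, MACS2 and mm10; versions, thresholds, duplicate handling and libraries used were not given in these sources. Each record holds the authors' linear fold enrichment (a ratio) at a summit, a deposited −log10 q, and a deposited score, which in all 157922 records was that −log10 q multiplied by 10 and rounded down. All values belong to a peak, not a sample. The folds were whole multiples of 1 step in 100% of records (tolerance 0.01), from which pileups (17 to 8197) and exact Poisson 95% intervals were computed; these cover counting error only, and PCR copies would make them too narrow. Library depth is unknown.

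Genes came from NCBI's GRCm38.p6 table, strand from RefSeq promoter windows; these held no chromosome 18 genes, so other genes there, and listed genes without strand, were read at either outer end. All 86 listed genes used were found; a few others of the lists are not reported here. For each start, the strongest summit within 500 bp was taken (Python 3.11.15, pandas 2.3.3, SciPy 1.17.1); the script was tested on simulated data. Members and lists were chosen with earlier results of these data known. Named were all called members, all c-type genes, the 10 strongest regions of the stretch, the 10 strongest away from gene ends, and the 2 strongest and first uncalled genes of each list. Ctcf, Dnmt3b, other genes of the lists and the weaker regions were named after their values were seen.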

Additional observations from a re-analysis of the deposited data

How the results depend on the processing

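The 11 called clustered protocadherins became 6 when records needed a −log10 q of 10 or more (Pcdhga6, Pcdhga7, Pcdhgb6, Pcdhgb7, Pcdhgc3 and Pcdhgc4). They became 4 when records needed 5-fold (Pcdhga7, Pcdhgb6, Pcdhgc3 and Pcdhgc4). The calls at Pcdhac2, Pcdhga3, Pcdhga9, Pcdhga12 and Pcdhgb5 thus rest on records weaker than both limits. The count was 9 with a window of 250 bp, 10 for regions overlapping the start, 12 with the pseudogene Pcdhgb8 added (chosen after seeing the data), and 11 under the other 4 settings, where the called genes were the same. The 56 regions of the stretch became 36 with flanks of 100 kb, 22 with none and 32 under the limit on fold; counted by summit there were 96. The 36 regions away from gene ends became 23 under the limit on −log10 q and 19 under that on fold. The median of 4.52-fold did not move with the window. No paired analysis was possible because no value belongs to a single library. Depth per library is unknown, and starts under the 2.09-fold of the weakest call would not be listed.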
